A study of Mus musculus with 5 samples.

Results

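Respiratory chain and ATP synthase genes were followed in the mandibles of mouse embryos at embryonic day 10.5. The genes were taken by symbol: every row of the count table starting with Nduf, Uqcr, Cox4 to Cox8 or Atp5, together with Sdha, Sdhb, Sdhc and Sdhd. Of 92 such rows, 87 reached a summed count of 15 over the 5 libraries and are the members described here, out of 23441 gene rows. Sorted by symbol, they comprised 44 genes of complex I, 4 of complex II, 8 of complex III, 14 of complex IV and 17 of complex V, the ATP synthase. The 17 include Atp5s and Atp5sl, counted there by their names and kept apart from the groups of subunits. The count table held 0 of the 13 subunits encoded by mitochondrial DNA, so all members are nuclear genes.

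The 3 control libraries came from embryos with the genotype Yapf/f, Tazf/f, on the strain background 129SvEv. The 2 dCKO libraries came from embryos that carried Wnt1Cre in addition to Yapf/f, Tazf/f, with C57BL/6J x CBA/J and 129SvEv given as strain background. All 5 thus carried the floxed alleles of Yap and Taz, 2 transcriptional coactivators of the Hippo pathway, and the dCKO embryos differed from the controls both in Cre and in strain, so effects of the deletion, the Cre transgene and the strain cannot be told apart. Wnt1Cre acts in neural crest and dorsal neural tube, so the other cells of the mandible keep both genes. The labels do not say whether a library is 1 embryo or a pool, nor that replicates are separate litters, so a p-value here reflects no more than how these libraries vary, which may be technical.

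The respiratory chain passes electrons from NADH through complex I, or from succinate through complex II, to coenzyme Q, then through complex III and cytochrome c to complex IV, which reduces oxygen. Complexes I, III and IV pump protons across the inner mitochondrial membrane, and ATP synthase uses the returning protons to make ATP. Most subunits are encoded in the nucleus, many supernumerary subunits surround a small catalytic core, and several subunits of complex IV have isoforms that differ between tissues.

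The controls held 6491137 to 7439419 counts each, and the dCKO libraries 11346480 and 13298973. Yap1 was 432 ± 106 CPM (counts relative to the TMM-scaled library size; mean ± SD, n = 3) in the controls and 172 ± 3.30 in the dCKO libraries (n = 2), and Wwtr1, the gene for Taz, was 56.4 ± 15.7 and 22.7 ± 0.0587 CPM. Genes of red blood cells took 0.347 to 0.458% of the counts in the controls and 5.52 to 7.68% in the dCKO libraries, and 11 of the 11 tested genes of that list were called higher (Hba-a1 and Hba-a2 were listed at 0 in all 5 libraries). Of 8 tested megakaryocyte genes 8 were called higher, with summed levels of 15 to 25 CPM in the controls and 137 to 263 in dCKO, and of 10 epithelial genes 3 were (364 to 469.8 and 549 to 574 CPM). Of 14 neural crest mesenchyme genes 1 was called higher and 3 lower. Among all genes tested, 5.0% were called higher and 1.42% lower. The part of these cell types in the members' differences was not tested. The defining markers of neural crest mesenchyme were present in every library (summed level 2253 to 2467 CPM in the controls and 2174 and 2232 in dCKO, below every control). Transcripts of X inactivation and of Y-linked genes split the libraries into control 3 and dCKO 2 against control 1, control 2 and dCKO 1. In such bulk tissue a smaller share of one cell type and less RNA per cell cannot be told apart.

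Most respiratory chain and ATP synthase genes, like most genes tested, had log2 fold changes within 0.5 of 0 between control and dCKO mandibles. Of the 85 members with enough counts to be tested, 5 were called higher in dCKO at an edgeR adjusted p below 0.05, namely Cox6b2, Atp5e, Atp5d, Ndufb7 and Ndufb11, and 0 were called lower. Among all 12710 genes tested, 5.0% were called higher and 1.42% lower, so the members' 5 of 85 is close to the background. At an unadjusted edgeR p below 0.05 there were 15 members higher and 5 lower, against 11.9% and 9.65% of all genes. DESeq2 called 4 members higher and 0 lower (4.68% and 1.86% of all genes), and limma-voom called 6 and 0 (5.26% and 1.60%). The median log2 fold change of the members was 0.063, beside −0.00062 over all genes, and it was −0.0071 (all genes −0.0034) once a trend in transcript length was removed. Log2 fold changes ran from −0.53 to 0.99, and 77 of the 85 members lay within 0.5 of 0, 59 of them within 0.25. Of all 12710 genes tested, 10780 lay within 0.5 of 0 and 7527 within 0.25. The median standard error was 0.14 and the smallest called change 0.49, so smaller changes were mostly not detectable with these libraries. Groups did not overlap for 16 members higher in dCKO and 5 lower, where 19.0% and 18.6% of all genes did so.

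**Figure D1:**
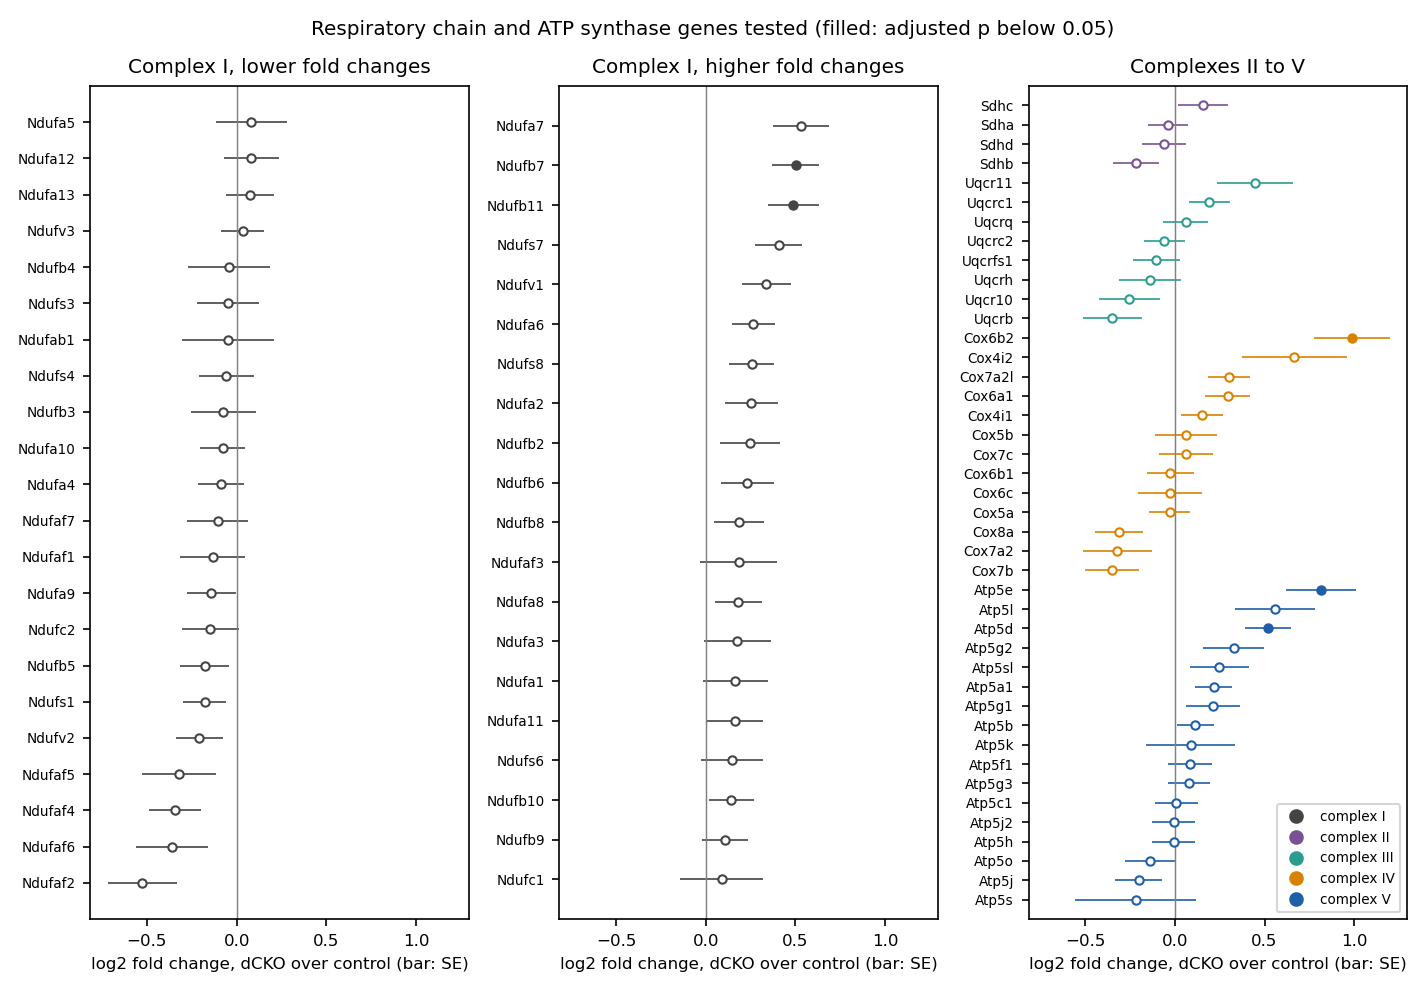
Log2 fold change of dCKO over control for the tested members, arranged by complex, with 1 gene of complex I not shown; each point is a gene and the bars are standard errors from edgeR. The 5 genes called higher are marked, and most other points lie within 0.5 of 0.

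Cox6b2 had the largest fold change of the tested members. It encodes an isoform of complex IV subunit VIb that is known mainly from testis. Its level was 7.61, 8.37 and 9.31 CPM in controls 1 to 3 and 17.1 and 16.3 CPM in dCKO 1 and 2. Both dCKO libraries lay well above every control. On the log2 scale the difference was 0.99 (SE 0.21; edgeR adjusted p = 0.00587), with group means of 8.43 ± 0.850 and 16.7 ± 0.556 CPM. Without dCKO 1 the size was similar but the edgeR adjusted p was 0.0774.

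Atp5e and Atp5d encode the epsilon and delta subunits of the central stalk, which couples the turning rotor to the catalytic head of ATP synthase. Atp5e was at 144, 125 and 121 CPM in the controls and at 306 and 151 in the dCKO libraries. The dCKO 1 library stood far above the other 4, and dCKO 2 lay just above the highest control. The fitted log2 fold change was 0.81 (SE 0.19; edgeR adjusted p = 0.0140). It was 0.22 without dCKO 1 (edgeR adjusted p = 0.598), and with all libraries DESeq2 gave an adjusted p of 0.212, so this call rested on 1 library; without control 3 the edgeR adjusted p was 0.0505. Atp5d was at 207, 214 and 272 CPM in the controls and at 340 and 322 in dCKO. The groups did not overlap, and control 3 was the control nearest to the dCKO libraries. Its log2 fold change was 0.52 (SE 0.13; edgeR adjusted p = 0.0162). The call was lost without control 1, control 2 or dCKO 1 (edgeR adjusted p = 0.117, 0.0847 and 0.134).

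Ndufb7 and Ndufb11 encode supernumerary subunits of the membrane arm of complex I. Ndufb7 was at 45.0, 49.8 and 51.4 CPM in the controls and at 73.1 and 64.9 in dCKO. All 3 controls lay close together and below both dCKO libraries. On the log2 scale dCKO was 0.50 above control (SE 0.13; edgeR adjusted p = 0.0248). Ndufb11, on the X chromosome, was at 44.5, 55.5 and 62.1 CPM in the controls and at 76.0 and 75.4 in dCKO. The dCKO libraries were nearly equal although they differed in X inactivation transcripts. Their log2 fold change over control was 0.49 (SE 0.14; edgeR adjusted p = 0.0433). For Ndufb7 the call was lost without control 1, control 2, dCKO 1 or dCKO 2 (edgeR adjusted p = 0.131, 0.0657, 0.272 and 0.0624). For Ndufb11 it was lost without the same libraries (0.222, 0.0803, 0.223 and 0.178). In the annotation, exons of Ndufb11 overlap exons of Rbm10 on the other strand by 117 bases, and Rbm10 had a log2 fold change of 0.09 (edgeR adjusted p = 0.733).

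**Figure D2:**
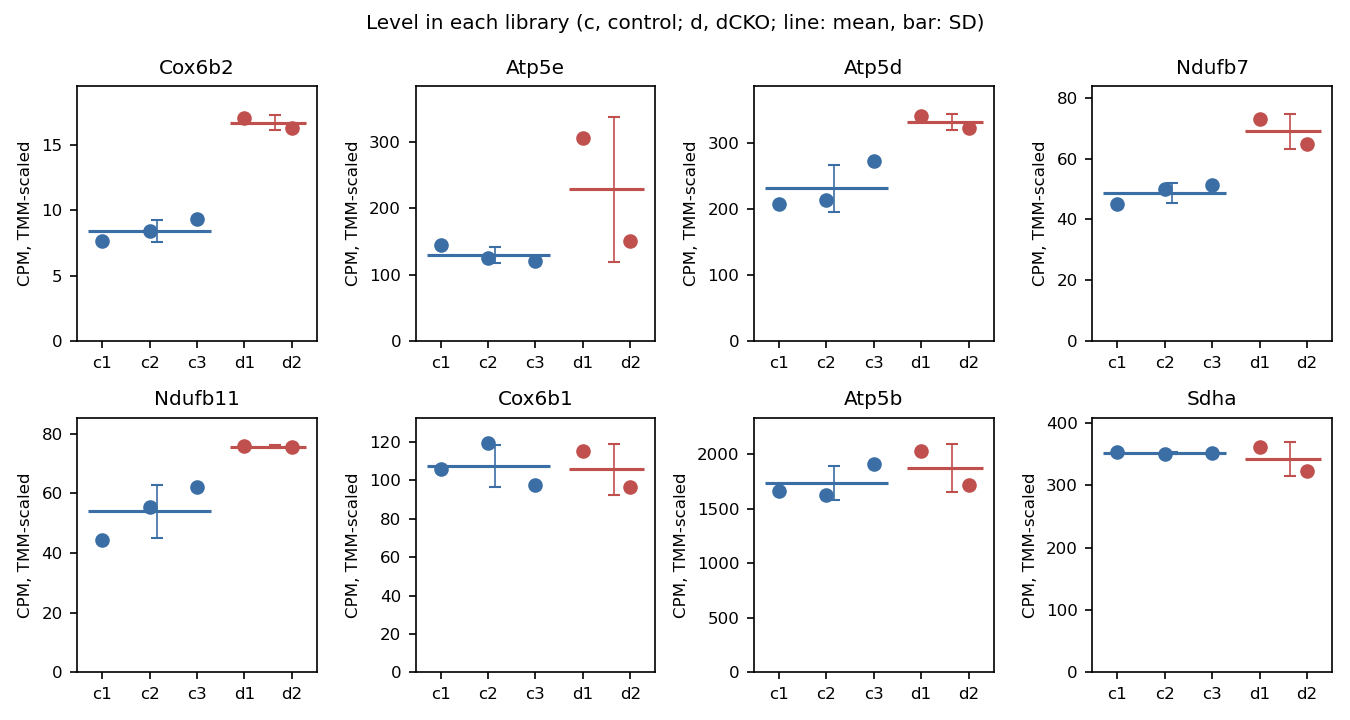
Level in CPM of the 5 members called higher and of Cox6b1, Atp5b and Sdha in each library (c, control; d, dCKO), with the group mean as a line and the SD as a bar. Atp5e shows 1 high dCKO library at 306 CPM, while the other called genes have both dCKO libraries above the controls.

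The promoter windows of these 5 genes are shown because they are the members called higher. Each window is the 250 bases before the transcription start, 5′ to 3′ on the gene's strand, from RefSeq with build GRCm38.p6. Capitals mark matches, on either strand, to the ETS core CCGGAA or the CCAAT box.
Cox6b2, chr7:4753095-4753344, minus strand: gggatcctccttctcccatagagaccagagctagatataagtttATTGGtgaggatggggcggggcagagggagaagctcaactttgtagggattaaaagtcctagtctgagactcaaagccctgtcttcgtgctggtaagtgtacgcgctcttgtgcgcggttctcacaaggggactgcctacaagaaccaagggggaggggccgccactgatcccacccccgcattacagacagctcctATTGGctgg
Atp5e, chr2:174464102-174464351, minus strand: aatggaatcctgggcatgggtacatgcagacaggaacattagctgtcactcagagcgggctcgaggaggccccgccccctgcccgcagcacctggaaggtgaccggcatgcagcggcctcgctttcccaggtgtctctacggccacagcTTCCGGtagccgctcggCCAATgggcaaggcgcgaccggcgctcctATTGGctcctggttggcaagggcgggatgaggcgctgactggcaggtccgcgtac
Atp5d, chr10:80142025-80142274, plus strand: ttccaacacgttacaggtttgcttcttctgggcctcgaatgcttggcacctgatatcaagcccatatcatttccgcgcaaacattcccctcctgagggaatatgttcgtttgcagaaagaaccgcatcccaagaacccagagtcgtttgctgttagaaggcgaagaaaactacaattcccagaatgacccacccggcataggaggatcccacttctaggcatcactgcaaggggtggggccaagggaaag
Ndufb7, chr8:83566508-83566757, plus strand: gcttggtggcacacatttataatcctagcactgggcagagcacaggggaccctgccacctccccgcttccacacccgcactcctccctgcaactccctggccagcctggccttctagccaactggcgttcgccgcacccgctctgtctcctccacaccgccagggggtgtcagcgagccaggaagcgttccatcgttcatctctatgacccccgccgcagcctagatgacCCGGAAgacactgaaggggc
Ndufb11, chrX:20617620-20617869, minus strand: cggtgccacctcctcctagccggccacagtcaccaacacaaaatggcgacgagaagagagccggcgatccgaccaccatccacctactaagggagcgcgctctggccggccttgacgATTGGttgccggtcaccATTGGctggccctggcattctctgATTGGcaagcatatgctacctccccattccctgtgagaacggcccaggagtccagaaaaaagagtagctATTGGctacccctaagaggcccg
Cox6b2 held 2 CCAAT boxes, Atp5e 2 CCAAT boxes and 1 ETS core, Ndufb7 1 ETS core and Ndufb11 4 CCAAT boxes. Atp5d held neither. None of the 5 held the core of the factor NRF1 (GCGCA, any base, then GCGC) or of YY1 (AAGATGGC).

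Over the 73 of 87 members with a window in the RefSeq table, 12 (16.4%) held the NRF1 core, 20 (27.4%) the ETS core, 33 (45.2%) the CCAAT box and 0 the YY1 core. NRF1 and the ETS factor GABP are known regulators of respiratory chain genes. Among the 10054 tested genes with a window the shares were 8.59%, 22.7%, 37.1% and 2.0%. A match describes the letters of the window and shows no binding.

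The 7 core subunits of complex I, which hold its flavin and iron-sulfur clusters, were divided, 3 with positive and 4 with negative log2 fold changes, and 0 were called. Ndufs7, which carries the last cluster before coenzyme Q, was at 65.2, 60.7 and 78.4 CPM in the controls and at 94.7 and 85.7 in dCKO. The groups did not overlap, but the log2 fold change of 0.41 (SE 0.13) missed the threshold (edgeR adjusted p = 0.0712). Ndufv1, the flavin-binding subunit, had a value of 0.34 (SE 0.14; edgeR adjusted p = 0.160). Ndufs8 stood at 0.26, while Ndufs1 was at −0.18 and Ndufv2 at −0.21.

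Among the 28 supernumerary subunits of complex I, 20 had positive and 8 negative log2 fold changes, with a median of 0.12. All genes tested were split into 6347 positive and 6363 negative. Some of the positive values rested on dCKO 1. Without it, Ndufa2 and Ndufb9 were at −0.043 and −0.032, while Ndufb7 and Ndufb11 stayed positive at 0.42 and 0.49. Ndufb7 and Ndufb11 were the called ones. Ndufa7 was at 41.2, 53.4 and 62.4 CPM in the controls and at 84.5 and 66.5 in dCKO. Its 5 libraries spread widely, and dCKO 2 was only slightly above control 3. The log2 fold change was 0.53 (SE 0.16; edgeR adjusted p = 0.0526). Ndufa2 and Ndufb9, among the most abundant complex I genes per length, had log2 fold changes of 0.25 (SE 0.15) and 0.11 (SE 0.13), with overlapping groups. Ndufs5, another supernumerary subunit, was listed at 0 in all 5 libraries.

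The 7 assembly factors named Ndufaf, which build complex I but are not part of it, had the lowest median of any role, −0.32, and 6 of the 7 were negative. None of the 7 was called. The 39 tested assembly factors outside the Nduf names had a median of −0.02, with 18 positive and 21 negative. Ndufaf2 had the most negative log2 fold change of all members, −0.53 (SE 0.19; edgeR adjusted p = 0.115). It was at 39.6, 46.7 and 26.5 CPM in the controls and at 26.7 and 25.7 in dCKO. Controls 1 and 2 were the high libraries, and control 3 lay with the dCKO libraries. Ndufaf4 and Ndufaf6 had groups that did not overlap, with log2 fold changes of −0.34 (SE 0.15) and −0.36 (SE 0.20). Of all genes, 18.6% were lower in dCKO without overlap. The 6 negative genes had transcripts of 39.5 to 50% GC, and Ndufaf3, the positive one, 56.0%. Once a trend in GC content was removed, Ndufaf4 was at −0.13 and Ndufaf2 at −0.49.

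Ndufa4, counted here with complex I by its name though its protein is now regarded as a subunit of complex IV, had a log2 fold change of −0.09 (SE 0.13). Its paralogue Ndufa4l2, known to be induced by hypoxia, had too few counts to be tested: 7, 1 and 3 counts in the controls and 10 and 55 in the dCKO libraries. Nearly all of the dCKO counts came from dCKO 2. Its exons overlap those of Shmt2 on the other strand by 32 bases, and Shmt2 was itself called higher (log2 fold change 0.62, edgeR adjusted p = 0.00435). Counting with or without strand is not stated in the labels or headers, so shared reads could not be separated.

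Complex II, the succinate dehydrogenase shared with the citric acid cycle, showed no called gene among its 4 subunits. The flavoprotein gene Sdha was at 353, 351 and 351 CPM in the controls and at 361 and 323 in dCKO. The 3 controls were nearly identical, and the dCKO libraries lay on either side of them. Its log2 fold change was −0.04 (SE 0.11; edgeR adjusted p = 0.878). The iron-sulfur subunit gene Sdhb had a value of −0.22 (SE 0.13), and the membrane anchors Sdhc and Sdhd had 0.16 (SE 0.14) and −0.06 (SE 0.12).

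Complex III, which hands electrons to cytochrome c, had 0 of 8 genes called, with 3 positive and 5 negative and a median log2 fold change of −0.08. The core protein gene Uqcrc1 stood at 0.19 (SE 0.11) and Uqcrc2 at −0.06 (SE 0.12), and the Rieske iron-sulfur protein gene Uqcrfs1 at −0.10 (SE 0.13). The small subunit gene Uqcr11 was at 18.6, 33.8 and 39.8 CPM in the controls and at 41.2 and 42.3 in dCKO. Control 1 was the only low library, and the log2 fold change was 0.45 (SE 0.21; edgeR adjusted p = 0.230). Uqcrb went the other way, at 52.5, 56.7 and 36.9 CPM in the controls and 38.8 and 37.9 in dCKO (−0.35 on the log2 scale, SE 0.17; edgeR adjusted p = 0.227). Here control 3 was the lowest of all 5 libraries. Uqcr10 and Uqcrh had log2 fold changes of −0.25 (SE 0.17) and −0.14 (SE 0.17).

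In complex IV, the isoforms found in most tissues were the abundant ones. Per kilobase of the longest transcript, Cox4i1 was at 436 ± 34.9 CPM in the controls and Cox4i2 at 8.25, and Cox6b1 was at 174 and Cox6b2 at 14.4. Cox8a and Cox6a1 had 291 and 250 CPM per kilobase, while the muscle forms Cox8b and Cox6a2 had 5 and 11 counts over the 5 libraries and were left out. Cox7b2 had 2 counts and Cox8c 0. Cox7a1, the muscle form of subunit VIIa, had 2, 1 and 0 counts in the controls and 6 and 8 in dCKO, too few to test.

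The 10 common complex IV subunits held 4 positive and 6 negative log2 fold changes, with a median of −0.03 and 0 called. Cox4i1 was at 363, 326 and 311 CPM in the controls and at 396 and 345 in dCKO (log2 fold change 0.15, SE 0.12). Control 1 lay above dCKO 2, so the groups overlapped. Cox6b1, the common counterpart of Cox6b2, stood at −0.03 on the log2 scale (SE 0.13; edgeR adjusted p = 0.933), and the difference between the paralogues was not tested. Cox6a1 stood at 0.29 (SE 0.13; edgeR adjusted p = 0.188). Cox4i2, an isoform of lung and of oxygen-sensing cells, was at 5.77, 8.10 and 4.27 CPM in the controls and at 7.75 and 11.5 in dCKO. Its groups overlapped at this low level (0.67 on the log2 scale, SE 0.29; edgeR adjusted p = 0.192).

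Cox8a was the complex IV gene whose dCKO libraries lay below every control, at 165, 179.9 and 136 CPM in the controls and at 123 and 134 in dCKO. Control 3 and dCKO 2 were almost equal. The log2 fold change was −0.31 (SE 0.13; edgeR adjusted p = 0.179). Cox7a2 was at 135, 136 and 70.8 CPM in the controls and 90.4 and 92.5 in dCKO. Control 3 was the lowest of the 5 and controls 1 and 2 the highest, which left dCKO at −0.32 on the log2 scale (SE 0.19; edgeR adjusted p = 0.353). Cox7a2l, which joins complexes III and IV into supercomplexes, stood at 0.30 (SE 0.12; edgeR adjusted p = 0.136), with groups that did not overlap.

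In complex V, all 5 genes of the catalytic head and central stalk and all 3 genes of the membrane c-ring had positive log2 fold changes. The medians were 0.22 and 0.21, and Atp5d and Atp5e were the only ones called. The shared sign depended on dCKO 1. In dCKO 2, Atp5b, Atp5c1 and Atp5g3 lay below the control mean (−0.0078, −0.014 and −0.10 on the log2 scale). Atp5a1, Atp5d, Atp5e, Atp5g1 and Atp5g2 lay above it. The beta subunit gene Atp5b, which carries the catalytic sites, was at 1666, 1627 and 1912 CPM in the controls and at 2035 and 1721 in dCKO. Control 3 lay above dCKO 2, and the log2 fold change was 0.11 (SE 0.10; edgeR adjusted p = 0.557). The alpha subunit gene Atp5a1 stood at 0.22 (SE 0.10; edgeR adjusted p = 0.228) and the gamma subunit gene Atp5c1 at 0.01 (SE 0.12).

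Atp5g1, Atp5g2 and Atp5g3 encode the same mature c subunit with different import sequences. Atp5g3 was the most abundant of them per length, at 447 CPM per kilobase against 11.8 for Atp5g1 and 33.0 for Atp5g2 in the controls. The lengths used were 862 bases for Atp5g3, 4715 for Atp5g1 and 753 for Atp5g2. Without length, the control means were 386, 55.7 and 24.9 CPM, so the order of Atp5g1 and Atp5g2 depended on the length. Their log2 fold changes were 0.21 (SE 0.15) for Atp5g1, 0.33 (SE 0.17) for Atp5g2 and 0.08 (SE 0.12) for Atp5g3. Atp5s and Atp5sl, counted with complex V by their names, had −0.22 (SE 0.34) and 0.25 (SE 0.16). The 7 genes of the peripheral stalk and other membrane subunits had a median of −0.01, with 3 positive and 4 negative. Atp5l was the farthest from 0, at 12.3, 12.6 and 8.54 CPM in the controls and 18.6 and 14.5 in dCKO. Both dCKO libraries were above the controls (0.56 on the log2 scale, SE 0.22; edgeR adjusted p = 0.150).

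Levels differed between members far more than between groups. Per kilobase of the longest transcript, Atp5b had 906 ± 80.5 CPM in the controls, followed by Atp5g3 with 447 ± 14.3, Cox4i1 with 436 ± 34.9 and Atp5a1 with 428 ± 31.6. Of these, Atp5g3, Cox4i1 and Atp5a1 did not differ beyond their spread. The median per gene was lowest in complex I (51.5) and highest in complex II (119), with 102 in complex III, 76.5 in complex V and 72.4 in complex IV. Complexes IV and V overlapped over the 3 controls, since complex IV was at 72.2 in control 1 and 75.9 in control 2 and complex V at 73.1 and 73.5. Complex V had 1.49 times the median of complex I. By the length of the principal transcript, which the longest exceeded by over 1.5 times in 16 members, the ratio was 1.90 and the order changed: complex II had 119, complex V 117, complex III 102, complex IV 94.5 and complex I 61.4.

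Summed over all members, respiratory chain and ATP synthase genes took 1.06, 1.08 and 1.05% of the counts in the controls and 1.13 and 1.02% in the dCKO libraries. The dCKO libraries bracketed the controls, with group means of 1.06 ± 0.0164% and 1.07 ± 0.0803%. By counting error alone the Wilson 95% interval of each share was narrow (1.01 to 1.02% in dCKO 2 and 1.13 to 1.14% in dCKO 1), so the gap between the dCKO libraries was wider than sampling of reads gives. ATP synthase genes made up the largest part, 0.459 ± 0.0211% in controls and 0.489 ± 0.0398% in dCKO. Complex I took 0.297 ± 0.0135% and 0.294 ± 0.0235%, and complex IV 0.127 ± 0.0132% and 0.123 ± 0.00321%. Without the red blood cell genes in the total, the members' share was 1.07 ± 0.0165% in controls and 1.15 ± 0.105% in dCKO. On that total dCKO 2, at 1.08%, lay within the range of the controls (1.05 to 1.08%), and dCKO 1, at 1.23%, lay above it.

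**Figure D3:**
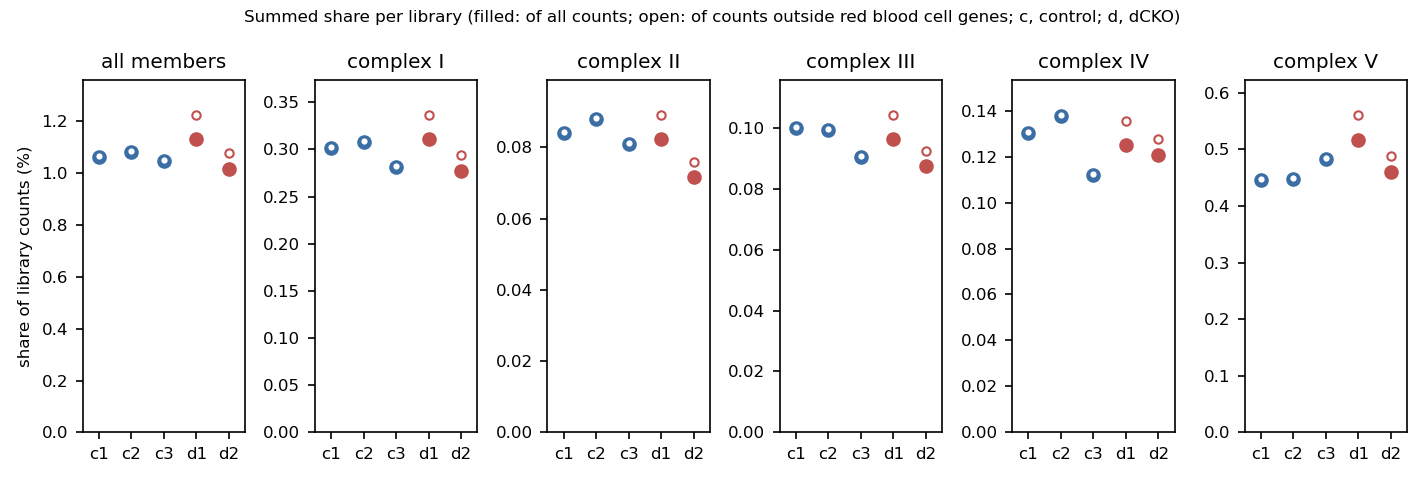
Share of each library's counts taken by all members and by each complex, in percent; filled points use all counts and open points the counts outside red blood cell genes. For all members together, the filled points of the dCKO libraries (d) lie on both sides of the controls (c), while of the open points dCKO 1 lies above the controls and dCKO 2 among them, and dCKO 1 is above dCKO 2 in every panel.

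The libraries of a group differed among themselves over the members. Control 3 was the lowest of the 3 controls in 47 of 85 members, beside 37.6% of all genes, and dCKO 1 was the highest of the 5 libraries in 34 of 85, beside 22.9% of all genes. The members' median deviation from the control mean was −0.01, 0.05 and −0.09 (log2) in controls 1 to 3, and 0.12 and −0.03 in dCKO 1 and 2.

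Leaving out control 3 changed the calls on the lower side. Then 6 members were called lower, namely Cox7a2 (log2 fold change −0.58, edgeR adjusted p = 0.00440), Cox7b (−0.50), Cox8a (−0.42), Ndufaf2 (−0.73), Uqcr10 (−0.44) and Uqcrb (−0.52), where 5.33% of all genes were called lower. The 7 called higher were Atp5d, Cox6b2, Ndufa7, Ndufb7, Ndufb11, Ndufs7 and Ndufv1, where 7.37% of all genes were. Since these 6 genes were singled out by leaving out control 3, its lower level in them describes that choice. Cox7b, an X-linked complex IV subunit gene, was at 87.6, 98.3 and 65.8 CPM in the controls and at 61.7 and 70.1 in dCKO. Without dCKO 1, 1 member was called higher, Ndufa4l2, and 0 were called lower, beside 3.08% and 0.298% of all genes. Ndufa4l2 had too few counts to be tested with all libraries. Its call here rested on dCKO 2 alone, with 55 counts beside 7, 1 and 3 in the controls, so nothing is concluded from it.

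**Figure D4:**
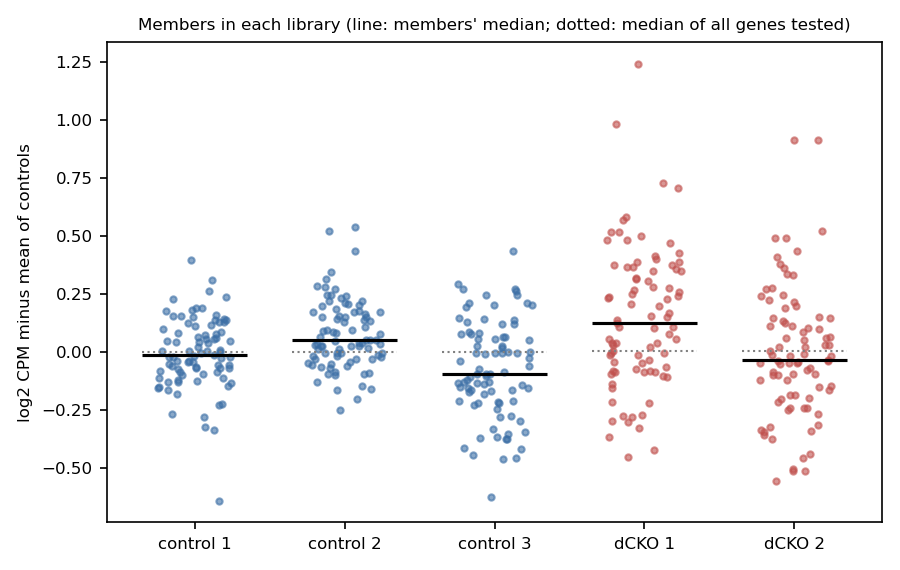
Deviation of each member from the mean of the controls in each library (log2 of CPM plus a pseudocount of 0.5), by library; each point is a gene, the black line the members' median and the dotted line that of all genes. The median is lowest in control 3 (−0.09) and highest in dCKO 1 (0.12).

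The members' fold changes followed the GC content of their transcripts, as those of all genes did. Across the 85 members, which share the same 5 libraries and are not independent replicates, Pearson's r between log2 fold change and GC was 0.41 and Spearman's rho 0.46, and over 12618 genes they were 0.29 and 0.48. The 43 members at or below 50% GC had a median log2 fold change of −0.06, and the 42 above it had 0.15. The corresponding medians of all genes were −0.13 and 0.13. Of the 5 called members, 4 were in the upper part. With the GC trend removed from each library, Atp5d had a log2 fold change of 0.29 (edgeR adjusted p = 0.0826) and Ndufb11 an adjusted p of 0.0561. In that fit Cox6b2, Atp5e and Ndufb7 were still called, Atp5l and Ndufa7 were also called higher and Cox8a lower, where 4.36% and 1.17% of all genes were. The part of GC content in these differences was not otherwise tested.

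**Figure D5:**
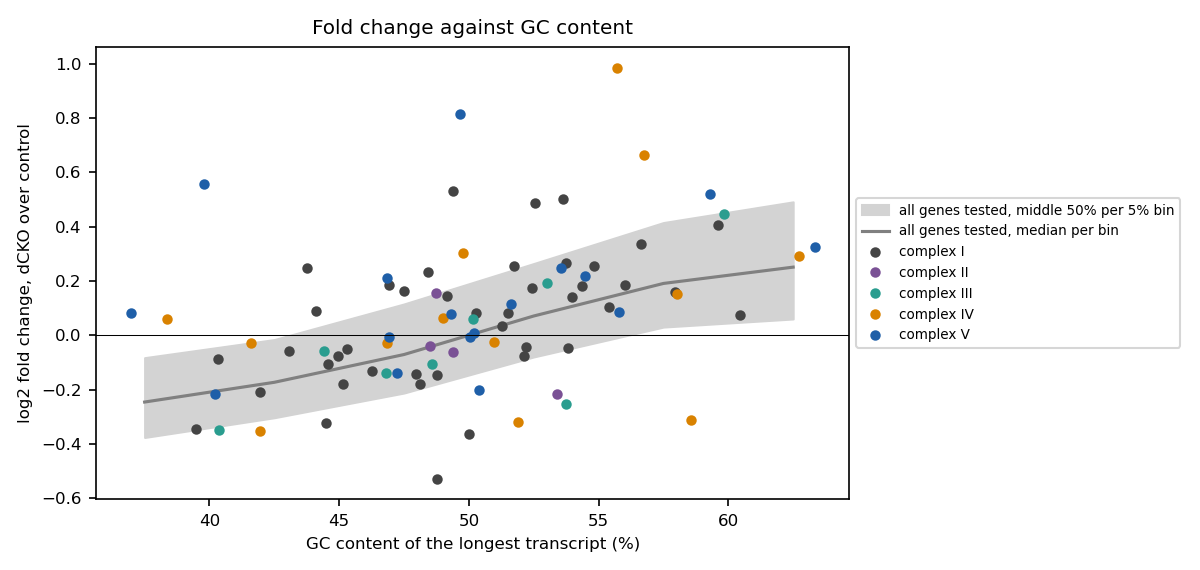
Log2 fold change of the tested members, with 1 gene of complex I not shown, against the GC content of the longest transcript in percent, coloured by complex; the line and band are the median and middle 50% of all genes tested, binned by GC. The members' median is −0.06 at or below 50% GC and 0.15 above, and Cox6b2 (0.99) and Atp5e (0.81) are the highest points.

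Members had short transcripts, with a median of 1200 bases against 3472.5 for all genes, but across members the fold change had little relation to length (Pearson's r = −0.04). For length, control 3 was compared with the mean of the other controls, not with the mean of all controls as above. On that log2 measure the members under 700 bases had a median of −0.25 and those over 2500 bases one of −0.0042. All genes of those lengths had −0.15 and 0.0040. Short transcripts were thus lower in control 3 among all genes as well. With the length trend removed, 4 members were called higher and 0 lower (5.15% and 1.75% of all genes), and Ndufb11 was no longer called (edgeR adjusted p = 0.0847).

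The authors' deposited table held all 87 members, with 52 positive and 35 negative log2 fold changes. At an adjusted p below 0.05, 4 members were called higher in the authors' deposited table, Atp5d, Cox6b2, Ndufb7 and Ndufb11, where 2.62% of its genes were higher and 0.263% lower. Atp5e had a log2 fold change of 0.84 and an adjusted p of 0.730 in the authors' deposited table.

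Of the genes around the respiratory chain, cytochrome c, which carries electrons from complex III to complex IV, was called lower. Cycs was at 61.3, 59.4 and 54.2 CPM in the controls and at 43.0 and 37.2 in dCKO. Every control lay above both dCKO libraries (−0.54 on the log2 scale, SE 0.14; edgeR adjusted p = 0.0214). The adjusted p was 0.130 with the GC trend removed, and 0.113, 0.0690, 0.0680 and 0.228 without control 1, control 2, dCKO 1 and dCKO 2. Among 39 tested assembly factors outside the Nduf names, 1 was called higher and 0 lower, beside 5.0% and 1.42% of all genes. It was Cox17, the copper chaperone of complex IV, at 27.4, 30.4 and 20.3 CPM in the controls and 55.7 and 32.8 in dCKO (log2 fold change 0.76, edgeR adjusted p = 0.0308). As for Atp5e, dCKO 1 was far above the rest, and without it the value was 0.34 (edgeR adjusted p = 0.573). The adjusted p was 0.0991 without control 1 and 0.0784 without control 3.

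Few genes of the other mitochondrial lists were called. The counts below stand beside 5.0% of all genes tested called higher and 1.42% called lower. Of 19 citric acid cycle genes, only Pcx, pyruvate carboxylase, was called, at a log2 fold change of 0.62 (edgeR adjusted p = 0.00691; 0.0571 with the GC trend removed), and the median was −0.10. Coenzyme Q synthesis (10 genes), regulators of mitochondrial biogenesis (18) and carriers, import and chaperones (29) had 0 called in either direction, with medians of 0.05, −0.17 and −0.05. At an unadjusted edgeR p below 0.05, 0, 2 and 5 of them were lower and 0 higher, where 9.65% and 11.9% of all genes were. Of the 29 carriers, import and chaperones, 8 had groups that did not overlap and were lower in dCKO, against 1 higher. Among all genes tested these shares were 18.6% and 19.0%. Mitophagy, the removal of mitochondria by autophagy, had 1 of 8 called higher, Pink1 (0.58; edgeR adjusted p = 0.0327, and 0.195 with the GC trend removed). Its median was 0.23 with 7 of 8 positive. Groups did not overlap for 5 of 8 higher in dCKO and 1 lower, where 19.0% and 18.6% of all genes did so. Mitochondrial ribosomal proteins had 1 of 76 called higher (Mrpl4) and 1 lower (Mrps6), with a median of 0.01. Mrpl4 missed the threshold with the GC trend removed (edgeR adjusted p = 0.104), and Mrps6 with a minimum summed count of 15 (0.0518) or a stricter filter (0.0634). Cytosolic ribosomal proteins had 6 of 85 called higher and 0 lower, with a median of 0.15, after 10 S6 kinase genes caught by their symbols were set aside. Of those kinase genes 2, Rps6ka3 and Rps6ka6, were called lower, but not with the GC trend removed (edgeR adjusted p = 0.135 and 0.0843) or without dCKO 1 (0.462 and 0.171). Rps6ka3 was also not called without control 1 (0.221), without control 2 (0.0762) or with a stricter filter (0.0579).

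Glycolysis, the pathway that supplies ATP without oxygen, had 3 of 16 tested genes called higher and 0 lower. The shares of all genes tested were 5.0% and 1.42%. Of the 16, 13 were positive and 3 negative, with a median log2 fold change of 0.19. Hk1, the hexokinase of most tissues and of red blood cells, was at 55.5, 48.1 and 52.0 CPM in the controls and at 86.1 and 97.3 in dCKO. Both dCKO libraries were far above the controls (0.82 on the log2 scale, SE 0.13; edgeR adjusted p = 0.000180). Tpi1 and Pfkl had log2 fold changes of 0.44 and 0.45 (edgeR adjusted p = 0.0185 and 0.0342), which missed the threshold with the GC trend removed (0.0501 and 0.171). Hk1 was called whichever library was left out, while Tpi1, Pfkl, Pcx, Pink1, Mrpl4 and Mrps6 each lost their call without at least 1 library, the largest edgeR adjusted p being 0.215, 0.283, 0.0781, 0.229, 0.378 and 0.344. The summed red blood cell list ran from 3436 to 4471 CPM in the controls and from 56149 to 80432 in dCKO, and its part in these results was not tested.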

How the data were processed

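Raw read counts per gene symbol, as deposited by the authors, were compared between 3 control and 2 dCKO libraries of poly(A) RNA. The submitters' processing notes name DESeq 1.16.0, HTSeq 0.5.4p3 and the build mm9. No aligner, annotation or strand setting is named in the sources used here. Thus overlapping genes (22 members overlap another counted gene) and near-identical copies could share reads. The authors' deposited table holds, per the file headers, a signal (mean normalized counts), a fold change as a ratio, its log2 value and p-values. Count columns headed wild type were matched to the control titles by replicate number.

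Low genes were removed by filterByExpr (count 10, total count 15), and the rest were scaled with TMM and tested two-sided with edgeR 4.0.16 (quasi-likelihood F test, R 4.3.3), with Benjamini-Hochberg adjustment over 12710 genes and a threshold of 0.05. The standard error is the log2 fold change divided by the root of F. Alternatives used limma 3.58.1, DESeq2 1.42.0, other size factors and filters, single libraries left out, a replicate block, red blood cell genes removed, and lowess trends (span 0.3) in GC content or length removed. Lengths and GC came from the GENCODE annotation of GRCm38. Intervals on shares cover counting error only. The fit was also run on simulated counts with the same dispersion for all genes and no effect of GC, length or single libraries. That run therefore does not vouch for the calls in these data. Replicates were no duplicates: chi-square per gene between 2 libraries of a group was 4.28 to 13.4. Named genes were all members past the threshold, the 2 smallest p and 2 most abundant per complex, the isoform families, the members of small counts in the text and up to 3 called genes of each pathway list; other members given with values (such as Ndufa7, Ndufs7, Ndufv1, Ndufaf2, Ndufaf4, Cox7b and Atp5l) were chosen after their values were seen. The values of 1 member are not reported here, though it is in the counts. The members and lists were chosen with earlier results of these data known.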

Additional observations from a re-analysis of the deposited data

How the results depend on the processing

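With other size factors, DESeq2, limma-voom, a minimum summed count of 15 or a stricter filter, 4 to 6 members were called higher and 0 lower, beside 4.7 to 5.3% and 1.2 to 1.9% of all genes. Without a filter 8 were higher and 1 lower (Ndufaf2; 4.57% and 1.64% of all genes), and with the GC trend removed 5 were higher and 1 lower (Cox8a). Leaving out 1 library gave 1 to 7 members higher, 0 to 6 lower, a median log2 fold change of −0.015 to 0.10 (−0.0012 with the replicate block), and 442 to 1637 genes called in all, where all libraries gave 816. With 1 dCKO library left, that library is assumed to vary like the controls. The fit with a replicate block, on replicates 1 and 2 of each group, called 11 members higher and 11 lower (11% and 9.5% of all genes) and 2646 genes in all, where control 3 was also absent; the labels share only numbers, and deviations of same-numbered libraries correlated at 0.084 and −0.004. The difference of the members' summed share, 0.0115 percentage points, became 0.0842 without red blood cell genes and ran from −0.0452 to 0.0683 with 1 library left out. The ratio of complex V to complex I rose from 1.49 to 1.90 with the principal transcript's length, an alternative added after seeing the data.

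Some log2 fold changes near 0 changed sign. With the GC trend removed Cox4i1 was at −0.069, Ndufa4 at 0.10, Ndufb9 at −0.047 and Sdha at 0.0057, and with the length trend removed Atp5g3 was at −0.015. With 1 library left out, Cox6b1 ran from −0.15 to 0.10 (0.053 without control 2, 0.10 without dCKO 2), Atp5b from −0.00045 to 0.23, Atp5g3 from −0.089 to 0.24, Ndufa2 from −0.043 to 0.52, Ndufa4 from −0.21 to 0.039, Ndufb9 from −0.032 to 0.25, Sdhc from −0.075 to 0.37, Sdha from −0.11 to 0.043 and Uqcrh from −0.45 to 0.13. The cause was not tested. A count of 0 allows up to 0.226 to 0.462 CPM per library.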
